A study of Danio rerio with 16 samples.

Results

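The outer 1 Mb of the zebrafish chromosomes was examined in whole genome bisulfite sequencing (WGBS) of the caudal fin. In bisulfite sequencing an unmethylated cytosine is read as thymine and a methylated one stays cytosine, so each read gives a methylated or unmethylated call at every CpG it covers. An end was taken as the CpGs within 1000000 bp of the smallest or of the largest position listed for a chromosome. Both ends of chromosome 4 were left out. This gave 48 ends of 24 chromosomes with 1011030 CpGs, which is 4.21% of the 23997221 CpGs listed. The end with the small positions is called the left end and the other the right end. The 17510755 CpGs that lay 5 Mb or more from both ends of the same 24 chromosomes (73.0% of all) served as the interior.

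There were 16 libraries in 8 groups of 2, all from fish carrying Tg(sp7:EGFP), in which the regulatory regions of sp7 drive EGFP in osteoblasts. Whole fin came from uninjured fish, called 0 days post-amputation (dpa), or was the regenerate at 1, 2 and 4 dpa. Cells sorted by fluorescence into sp7+ and sp7- cells were taken at 0 and 4 dpa. According to the study's methods the fish were adults, and for the sorted cells several fins or regenerates were pooled for each replicate. Pooling for whole fin is not given in the sources used here. By the study's description the whole regenerates mixed blastema with wound epidermis, and EGFP marked osteoblasts from differentiation to maturity. With 2 libraries in a group, the error of a group covers the spread between these libraries only. No annotation of the genome build of these files was at hand, so the cell type labels were not checked against marker genes and regions are given by position, as deposited, on GRCz10.

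In vertebrates most CpGs carry methylation, and stretches rich in unmethylated CpGs are typically promoters and other regulatory regions. A chromosome ends in telomeric repeats, and next to them lies the subtelomere, which often holds segments repeated between chromosomes and is hard to assemble. In zebrafish, crossovers in male meiosis fall mainly near the chromosome ends. The long arm of chromosome 4 is late replicating and rich in repeats, unlike the other arms.

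The ends were more densely set with CpGs than the interior. They held 10.53 CpGs per 500 bp tile and the interior 8.55, a ratio of 1.23. This density was not particular to the outer 1 Mb. Per Mb between 1 and 5 Mb from an end there were 10.39, 10.47, 10.38 and 10.25 CpGs per tile. Within the ends the value was 11.4 at 50 to 100 kb and 10.36 at 900 kb to 1 Mb. The median distance between neighbouring CpGs was 22 bp in the ends and 26 bp in the interior. Each of the 48 ends exceeded the interior of its own chromosome. The values ran from 9.28 to 12.85 CpGs per tile over the ends and from 8.28 to 9.24 over the interiors, so the ranges did not overlap. Tiles with over 20 CpGs made up 9.45% of the tiles of the ends and 5.84% of those of the interior. Tiles with 1 or 2 CpGs made up 7.85% and 11.3%. A list of CpGs is the same in every library, so these values have no library error.

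Reads covered the CpGs of the ends more deeply. Libraries held 117991918 to 153260623 calls for whole fin and 198736279 to 471925247 calls for sorted cells. Mean coverage in the ends was lowest at 5.78 and highest at 22.89 reads per CpG, with a median of 8.48 over the 16 libraries. In the interior it ran from 5.03 to 20.04 reads per CpG. The ratio of ends to interior was 1.14 in the geometric mean, lay between 1.11 and 1.21, and was above 1 in 16 of 16 libraries (two-sided exact permutation of signs, p = 3.05e-05, the smallest that 16 libraries can give, and 4.07e-05 after Benjamini-Hochberg adjustment over 8 such tests). Of the 48 ends, 42 were covered more deeply than their own interior. Tiles above 2 times the median coverage per CpG made up 24.5% of the tiles of the ends and 19.4% of those of the interior, and they held 61.5% and 51.9% of the calls. Coverage therefore moved with the position.

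The ends were slightly less methylated than the interior in every library. The methylation level, the methylated calls over all calls, was 74.9% in the lowest library for the ends, 76.8% in the median and 79.0% in the highest. For the interior these values were 75.7%, 77.7% and 79.8%. The ranges of the ends and the interior overlapped, since libraries differed among themselves by more than the ends did from the interior. Within a library the order was always the same. The ends minus the interior came to -0.88 ± 0.20 percentage points (SD, n = 16), from -1.16 to -0.61, and the sign was negative in 16 of 16 libraries (two-sided exact permutation of signs, p = 3.05e-05, adjusted 4.07e-05). Whole fin libraries alone gave -0.88 and sorted cell libraries alone also -0.88. This p covers the agreement of the libraries, which all read the same 48 ends. Libraries of sp7+ and sp7- cells that may share fish were counted singly in it. It does not cover the spread between ends, whose differences had an SD of 3.11 points, with 30 ends lower and 18 higher. The same limit holds for the other permutations of signs over libraries.

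**Figure D1:**
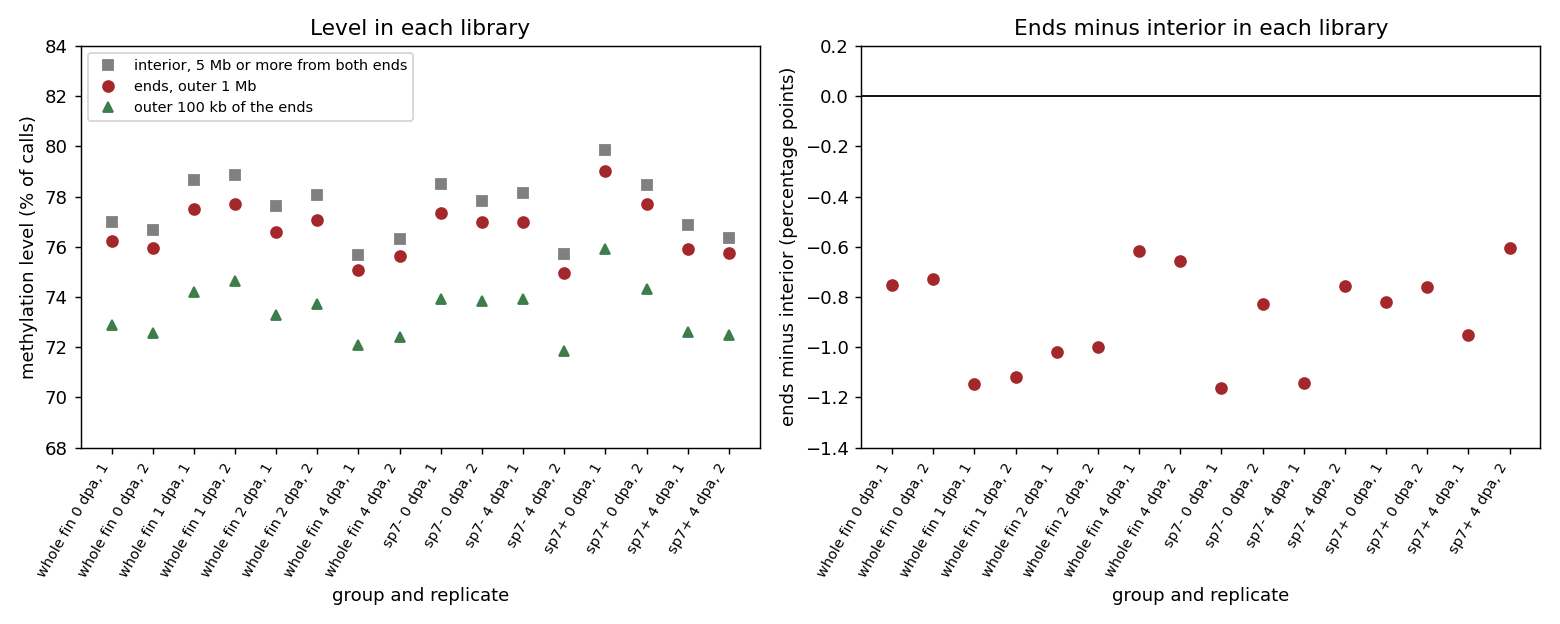
Methylation level (left, % of calls) of the interior, the ends and the outer 100 kb of the ends, and ends minus interior (right, percentage points), with 1 point for each of the 16 libraries named on the x axis. The ends lie below the interior in all 16 libraries, by 0.61 to 1.16 points, and the outer 100 kb lies lower still, between 71.8% and 75.9%.

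This small difference depended on where the ends and the interior were taken to begin. With ends of 500 kb it was -2.33 points. With ends of 2 Mb it was 0.63 points and the ends were the higher ones in the mean of the libraries. Without the outer 300 kb of each end it was 0.31 points. Without the tiles above 2 times the median coverage it was -1.81 points, and as a mean over tiles, in which each tile counts once, -0.47 points. With the interior starting 10 Mb from both ends it was -0.29 points. The interior was not uniform either, as CpGs 15 Mb or more from an end had a level of 76.0% and those between 5 and 10 Mb one of 79.2%. The former were 8831709 of the 17510755 CpGs of the interior. They lay below the ends, which had 76.7% in the mean of the libraries. Against the 3983573 CpGs between 1 and 5 Mb from an end, where the level was 79.9%, the ends were lower by 3.30 ± 0.11 points (SD, n = 16), in 16 of 16 libraries (exact permutation of signs, p = 3.05e-05).

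The level rose with distance from the end, though not steadily. It was 73.9% in the outer 10 kb, 68.3% between 10 and 20 kb, 75.2% between 20 and 50 kb and 73.2% between 50 and 100 kb, as means of the 16 libraries. The mean over tiles was 72.3% between 10 and 20 kb and 73.0%, 73.9% and 74.2% in the other 3 of these zones, so the low value at 10 to 20 kb was less marked when each tile counted once. From 300 kb onward the level per 100 kb lay between 75.8% and 79.7%. It was 79.9% between 1 and 2 Mb and 80.3% between 3 and 4 Mb, the highest of all zones, and declined to 78.9% between 10 and 15 Mb. All 16 libraries had a lower level than their own interior in each zone of the outer 300 kb, and 0 of 16 had one between 900 kb and 1 Mb. In between the count went up and down. It was 16 of 16 at 400 to 500 kb, 0 at 500 to 600 kb and again 16 at 700 to 800 kb. The levels there were 75.8%, 79.5% and 77.1%.

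**Figure D2:**
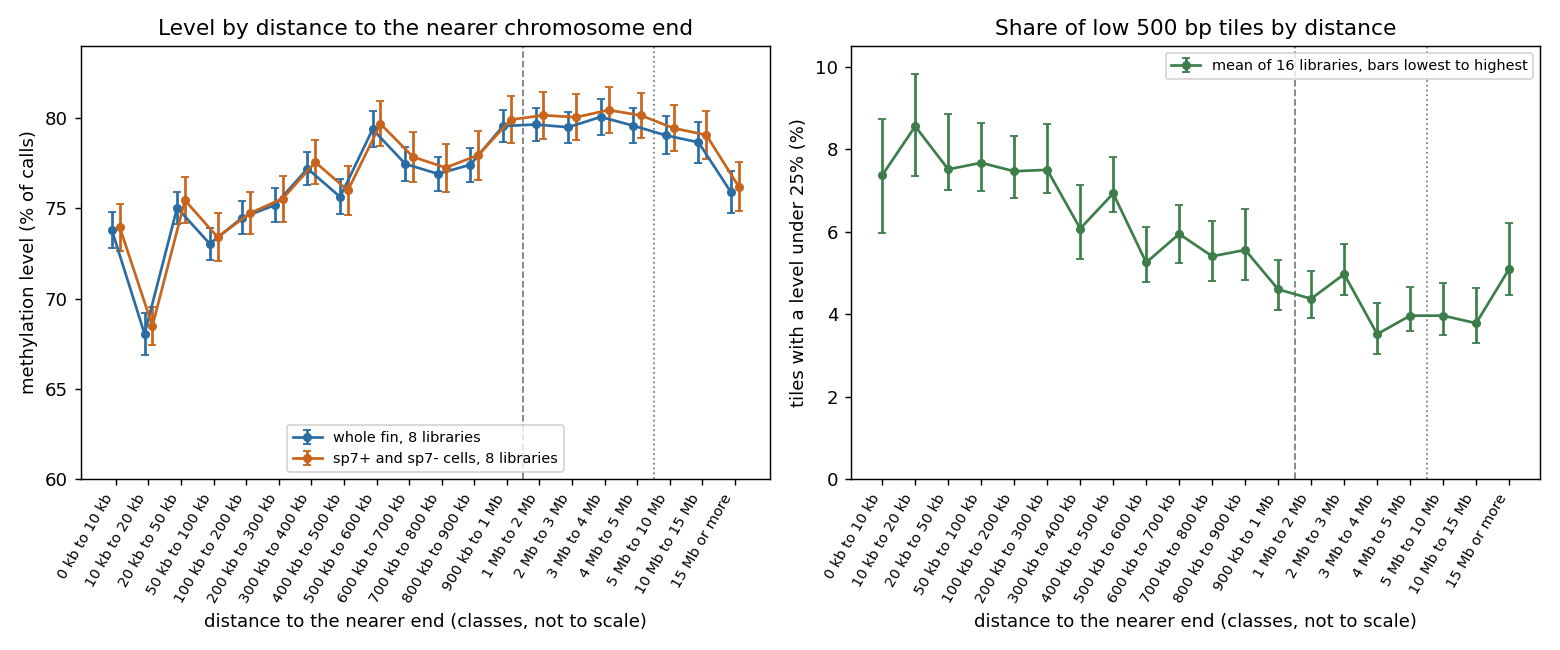
Methylation level (left, % of calls, mean and SD of 8 whole fin and 8 sorted cell libraries) and share of 500 bp tiles with a level under 25% (right, mean of 16 libraries with bars from the lowest to the highest), by distance to the nearer chromosome end, with the dashed line at 1 Mb and the dotted line at 5 Mb. The level climbs, unevenly, from 68.3 to 75.2% in the outer 100 kb to 79.7% just inside 1 Mb. The share of low tiles declines, also unevenly, from between 7.37 and 8.55% to 4.6%.

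The contrast within the ends was the larger one. It was taken against 900 kb to 1 Mb, the 100 kb zone of the ends with the highest level. From 600 to 900 kb the level per 100 kb lay between 77.1% and 77.7%. The outer 100 kb had a level of 73.4 ± 1.09% (SD, n = 16) and the stretch from 900 kb to 1 Mb one of 79.7 ± 1.09%. The difference was -6.32 ± 0.21 points (SD, n = 16). It lay between -6.73 and -6.03 points, so no library came near 0 (exact permutation of signs, p = 3.05e-05, adjusted 4.07e-05). It was -6.35 points without the tiles above 2 times the median coverage and -6.64 points as a mean over CpGs with at least 5 reads. With each tile counted once it was smaller, at -3.94 ± 0.25 points (SD, n = 16), from 73.8% and 77.7%, and negative in 16 of 16 libraries (exact permutation of signs, p = 3.05e-05). Uninjured whole fin had -6.46 ± 0.27 points and whole fin 4 days after amputation -6.29 ± 0.24 (SD, n = 2). In sp7- cells it was -6.49 ± 0.34 before and -6.24 ± 0.14 after, and in sp7+ cells -6.22 ± 0.27 before and -6.28 ± 0.30 after. The libraries of these 6 groups overlapped. Coverage ran from 10.3 to 12.8 reads per CpG over the 4 zones of the outer 100 kb and was 9.63 at 900 kb to 1 Mb. The part of coverage in the decline was not tested beyond the value without the deeply covered tiles.

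Most single ends showed the low tip, but not all of them. The outer 100 kb was below 900 kb to 1 Mb in 38 of 48 ends, in 34 of them in all 16 libraries, and above it in all 16 libraries in 6 ends. Against the interior of the same chromosome it was lower in 36 ends, in 30 of them in all 16 libraries, and higher in all 16 libraries in 9 ends. The median over the ends was -3.39 points against the interior, and values ran from -17.25 to 11.02 points. The tip of the left end of chromosome 13 was the lowest, with 60.1% (57.8 to 64.7% over the libraries). The tip of the right end of chromosome 20 was the highest, with 89.0% (86.7 to 91.0%). With each end counting the same, the tips were lower than the remaining 900 kb of their ends by 3.48 points in the mean.

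Low, middle and high tiles changed in different directions. Tiles of 500 bp with at least 10 calls in a library were called low under 25%, high from 75% and middle in between. Low tiles made up 6.26 ± 0.42% of the tiles of the ends and 4.52 ± 0.45% of those of the interior (SD, n = 16). The excess in the ends was 1.74 ± 0.06 points and lay between 1.64 and 1.81 points, in 16 of 16 libraries (exact permutation of signs, p = 3.05e-05, adjusted 4.07e-05). Middle tiles made up 24.3% and 27.2%, and the ends were lower by 2.88 ± 0.65 points in 16 of 16 libraries (the same p). High tiles made up 69.5% and 68.3%, and the ends were higher by 1.14 ± 0.65 points in 15 of 16 libraries (exact permutation of signs, p = 6.10e-05, adjusted 6.98e-05), with whole fin at 1 dpa replicate 2 at -0.04.

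Of the 3 classes, the excess of low tiles kept its direction in each alternative tried, and the other 2 did not. Among tiles with matched numbers of CpGs the low tiles stayed in excess by 1.2 ± 0.08 points, whereas the middle tiles were 0.38 points higher and the high tiles 1.58 points lower in the ends. Against the zone from 1 to 5 Mb the low tiles were in excess by 2.06 points, the middle tiles were 1.62 points higher and the high tiles 3.67 points lower. With every tile thinned to 10 calls the 3 differences were 1.69, -2.61 and 0.92 points. Thinning gave each kept tile the same number of calls, but the choice of tiles and the deeply covered tiles stayed as they were. High tiles were 0.49 points lower in ends of 500 kb. Without the deeply covered tiles the high tiles were 1.2 points lower, and the middle tiles were lower by 0.67 points in place of 2.88.

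Runs of low tiles, single tiles included, were more frequent per Mb near the ends. Runs of neighbouring tiles under 25% in the 16 libraries summed were counted, 2814 in the ends and 43317 in the interior. They came to 58.6 runs per Mb in the ends and 42.3 in the interior. Within the ends they were at 69.0 per Mb in the outer 100 kb, 68.02 from 100 to 300 kb and 54.4 from 300 kb to 1 Mb, and there were 41.2 between 1 and 5 Mb. Runs of at least 1000 bp came to 27.9 per Mb in the ends and 17.7 in the interior, and runs of at least 2500 bp to 2.62 and 1.83. The mean length differed little, at 967 and 925 bp. These counts come from summed libraries and carry no test.

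The 3 longest low runs of the ends had low levels in every library. They were chosen by length among runs that were low in the same libraries summed, which favoured this. The run on chr2:806000-816999, 806 kb from the left end, spanned 11000 bp with 359 CpGs and had a level of 7.14% (4.35 to 10.4% over the libraries). The run on chr6:60145500-60154999, 118 kb from the right end, spanned 9500 bp with 389 CpGs at 3.28% (2.23 to 4.74%). The run on chr16:54695500-54704499, 678 kb from the right end, spanned 9000 bp with 289 CpGs at 4.89% (3.04 to 6.76%). Each had at least 2188 calls in every library. Genes at these positions were not looked up, as no annotation of GRCz10 was used.

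The difference between ends and interior was largest in the tiles densest in CpGs. Tiles with over 20 CpGs had a mean level of 74.6% (73.6 to 75.5% over the libraries) in the ends and 78.3% (77.1 to 79.7%) in the interior, a difference of -3.68 ± 0.32 points (SD, n = 16). The ranges of the libraries did not overlap. In tiles with 3 to 20 CpGs, in 4 classes, the ends were lower by means of 0.33 to 1.02 points, in 16 of 16 libraries in each class. In tiles with 1 or 2 CpGs the ends were higher by 1.61 ± 0.66 points, in 16 of 16 libraries. Averaged over the 6 classes with the weights of the ends, the difference was -1.08 ± 0.16 points, negative in 16 of 16 libraries (exact permutation of signs, p = 3.05e-05, adjusted 4.07e-05). In ends of 2 Mb it was 0.03 points (exact permutation, p = 0.479), and in ends of 500 kb -2.12 points. It was -2.05 points without the deeply covered tiles, -0.64 with the interior starting 10 Mb from both ends and -0.30 without the outer 300 kb.

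The densest tiles also had the steepest gradient. Of the tiles with over 20 CpGs, 20.2% were low in the outer 100 kb (19.5 to 20.6% over the libraries) and 19.6% between 100 and 300 kb (19.22 to 19.98%). From 300 kb to 1 Mb this share was 12.7%, between 1 and 5 Mb it was 7.43%, and in the interior 10.8%. These ranges of the libraries did not overlap between the outer 300 kb and the other zones. The classes with fewer CpGs had low shares of 4.76 to 7.16% in the outer 100 kb and 3.22 to 6.0% in the interior. The mean level of tiles with 13 to 20 CpGs rose from 76.7% in the outer 100 kb to 80.4% between 1 and 5 Mb, and that of tiles with over 20 CpGs from 69.95% to 81.1%.

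**Figure D3:**
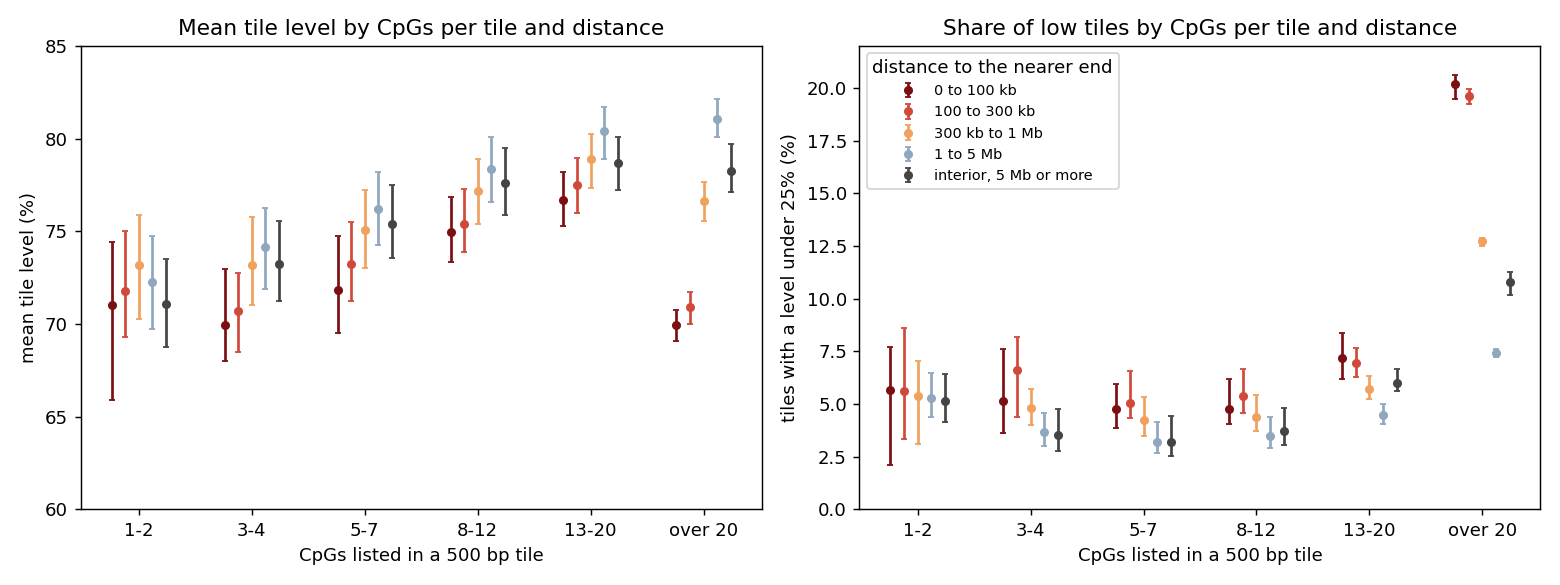
Mean tile level (left, %) and share of tiles with a level under 25% (right, %) by the number of CpGs listed in a 500 bp tile and by distance to the nearer end, as means of 16 libraries with bars from the lowest to the highest library. In tiles with over 20 CpGs the low share is 20.2% in the outer 100 kb and 7.43% between 1 and 5 Mb, and the levels of these zones do not overlap.

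Single ends differed from each other more than replicates did. The level of an end, as a mean of 16 libraries, ran from 67.4% to 83.7% with a median of 76.6%. The SD between ends was 2.75 points, whereas 2 replicates of a group differed at an end by 0.77 points in the mean. Relative to the interior of the same chromosome 30 ends were lower and 18 higher. Of these, 26 were lower in all 16 libraries, 14 were higher in all 16 libraries and 8 changed sign between libraries. Both ends were lower in 12 chromosomes and both were higher in 6. Ends with more low tiles had lower levels relative to their interiors (Pearson r = -0.64 over 48 ends, which share the libraries and, in pairs, the interior, given as a description). The calls of low tiles are part of the level, so a negative r is in part built in. For middle tiles r was -0.35, for CpG density 0.41, for coverage -0.32 and for the share of deeply covered tiles -0.16.

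**Figure D4:**
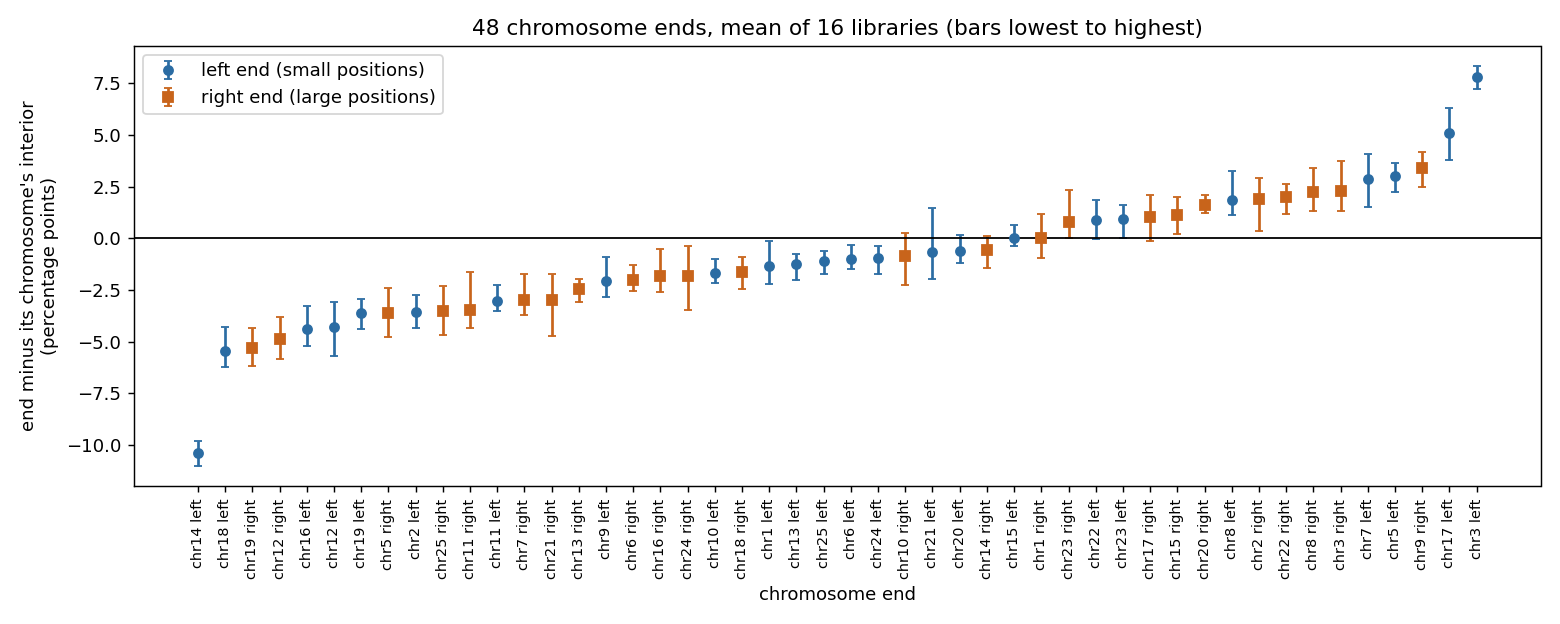
Level of each of the 48 ends minus the level of the interior of the same chromosome (percentage points, y axis), in rising order, as the mean of 16 libraries with bars from the lowest to the highest library. The left end of chromosome 14 lies apart at -10.38 points and the left end of chromosome 3 at the other extreme at 7.80 points.

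The left end of chromosome 14 was the lowest. Its level was 67.4% over the 16 libraries (65.6 to 70.1%) and that of its interior 77.8%, a difference of -10.38 points that lay between -11.02 and -9.83. The replicates of uninjured whole fin had 66.8 and 66.6%, those on day 1 after amputation 68.5 and 69.0%, those on day 2 67.6 and 67.6% and those on day 4 65.9 and 66.0%. The sp7- cells had 67.7 and 67.7% when uninjured and 68.3 and 65.6% on day 4, and the sp7+ cells 70.1 and 67.9% when uninjured and 66.3 and 66.3% on day 4. Every library was far below its interior. The low level was not spread evenly over the 1 Mb. The window from 200 to 250 kb had 39.4% (37.3 to 42.1%) with 1365 CpGs, the outer 50 kb had 55.1% (54.0 to 57.1%), and the window from 750 to 800 kb had 54.8% (49.7 to 59.8%). The windows in between reached 80.7%. Without this end the ends minus the interior came to -0.67 points in place of -0.88.

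The left end of chromosome 3 was the highest. Its level was 83.7% and that of its interior 75.9%, a difference of 7.80 points that lay between 7.24 and 8.34. Uninjured whole fin had 83.4 and 83.0%, whole fin on day 1 84.7 and 84.8%, on day 2 83.4 and 84.3% and on day 4 81.9 and 82.5%. The sp7- cells had 84.9 and 83.7% when uninjured and 83.8 and 81.5% on day 4, and the sp7+ cells 86.7 and 85.3% when uninjured and 83.3 and 82.6% on day 4. All 16 libraries were thus above every library of the left end of chromosome 14. Its outer 100 kb did not share this level, with 76.3% in the outer 50 kb and 70.8% in the next 50 kb, while windows from 250 kb onward had 80.0 to 90.6%.

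**Figure D5:**
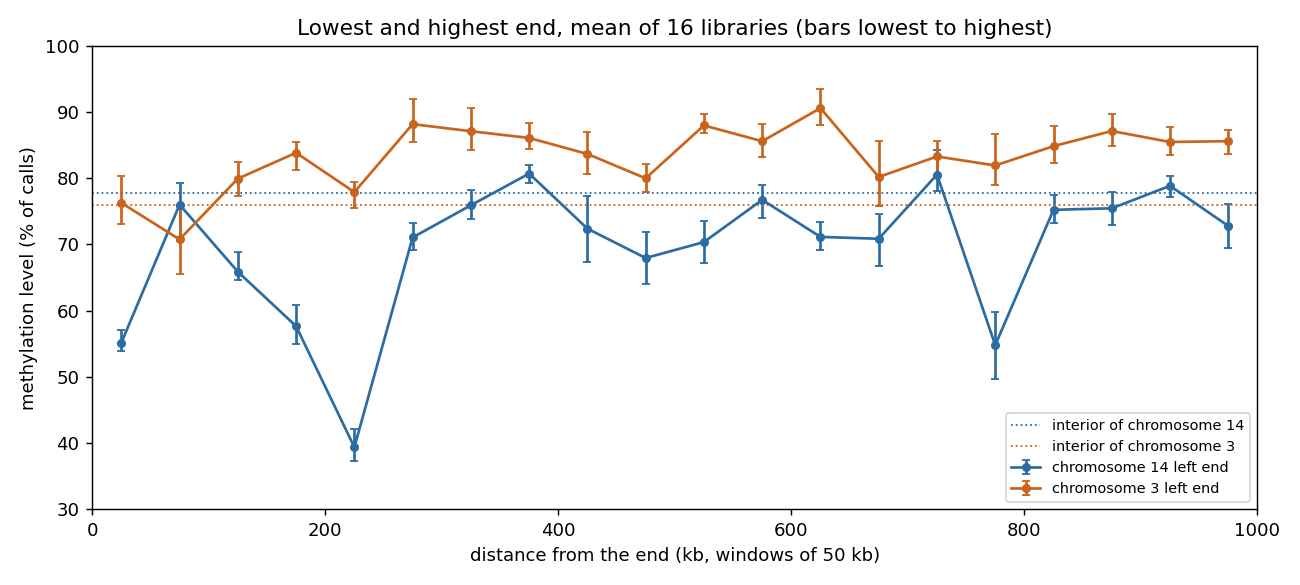
Methylation level (% of calls) in windows of 50 kb along the left ends of chromosomes 14 and 3, by distance from the end (kb), as the mean of 16 libraries with bars from the lowest to the highest library and dotted lines at the level of each interior. The end of chromosome 14 drops to 39.4% at 200 to 250 kb, and the end of chromosome 3 is below its interior in 1 window, at 50 to 100 kb with 70.8%.

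The next ends in the order were less extreme. The left end of chromosome 18 differed from its interior by -5.44 points (-6.23 to -4.28 over the libraries) and the right end of chromosome 19 by -5.30 points (-6.20 to -4.36). The left end of chromosome 17 differed by 5.10 points (3.79 to 6.33) and the right end of chromosome 9 by 3.41 points (2.50 to 4.16). Neighbours in the middle of the order overlapped over the libraries. At the left end of chromosome 17 the difference was 5.39 to 6.33 points in whole fin and 3.79 to 4.99 points in sorted cells, so these 2 sets of libraries did not overlap. Whole fin and sorted cells differed in the mean at other ends too. The 2 largest such differences of the 48 ends were at right ends. That of chromosome 24 had a level of 75.1% in whole fin and 77.6% in sorted cells, and that of chromosome 21 had 73.2% and 75.2%. Over all ends joined the levels were 76.5% in whole fin and 76.8% in sorted cells. Sorted libraries were deeper, and the part of depth in this was not tested.

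Left and right ends were close. The right ends had a level of 76.8% and the left ends one of 76.5%. The difference was 0.21 ± 0.14 points (SD, n = 16), positive in 14 of 16 libraries (exact permutation of signs, p = 0.000183, adjusted 0.000183). It rested on single ends. With each end counting the same it was 0.06 points (exact permutation, p = 0.133), without the left end of chromosome 14 it was -0.20, and without the outer 300 kb it was -0.59 points.

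The question of whether osteoblasts or the regenerate differed at the ends was asked at the level of whole ends first. The ends of uninjured sp7- cells had a level of 77.2 ± 0.24%, those of sp7- cells on day 4 one of 76.0 ± 1.46% (SD, n = 2). In sp7+ cells they had 78.4 ± 0.94% before and 75.8 ± 0.13% after amputation. The sp7+ minus sp7- difference was 0.53 points (two-sided exact permutation of 4 against 4 libraries, p = 0.6, adjusted 0.72 over 6 such tests), and it was -0.11 points without sp7+ 0 dpa replicate 1 and -0.01 without sp7- 4 dpa replicate 2. Sorted cells at 4 dpa were lower than at 0 dpa by 1.85 points (exact permutation, p = 0.0571, adjusted 0.343), and this was so at each of the 48 ends, by 1.13 to 2.62 points. Without sp7- 4 dpa replicate 1 the difference was -2.22 points (exact permutation, p = 0.0286, the smallest that 4 against 3 libraries can give). Leaving out any other single sorted library gave p = 0.0571 or p = 0.0857 by exact permutation. These permutations counted each library singly, although sp7+ and sp7- libraries of 1 time point and number may share fish. Their p-values for time may therefore be too small. The interior moved with the ends, and the difference between ends and interior was 0.03 points closer to 0 at 4 dpa (exact permutation, p = 0.8) and 0.19 points closer to 0 in sp7+ cells (p = 0.2, adjusted 0.6). The sp7+ library was the one closer to 0 in 4 of 4 pairs of libraries with the same time point and number, a pairing that the methods imply (exact permutation of signs over pairs, p = 0.125, the smallest that 4 pairs can give). The change over time in sp7+ cells, -2.52 points, and that in sp7- cells, -1.18 points, were compared by permuting the cell types within time points (exact permutation, p = 0.389, smallest possible p 0.0556).

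The ends of uninjured whole fin had 76.1 ± 0.21%, those on day 1 77.6 ± 0.15%, those on day 2 76.8 ± 0.33% and those on day 4 75.3 ± 0.41% (SD, n = 2). Libraries after amputation minus those at 0 dpa gave 0.50 points (exact permutation of 6 against 2 libraries, p = 0.536, adjusted 0.72, smallest possible p 0.0357). The ends minus the interior was -0.74 ± 0.02 points in uninjured fin, -1.13 ± 0.02 on day 1, -1.01 ± 0.01 on day 2 and -0.64 ± 0.03 on day 4. The interior had 76.8, 78.7, 77.8 and 76.0% at these time points, so its level was higher where this difference was larger in size. The part of the interior level in this was not tested. The pairs of replicates of the ends minus the interior did not overlap between any 2 of these time points. Of later against uninjured fin the difference was -0.19 points (exact permutation, p = 0.393, adjusted 0.72), since 1 and 2 dpa lay below and 4 dpa above the value at 0 dpa. In sorted cells replicates were farther apart. Replicate 1, the deeper one, had the larger difference from the interior in all 4 groups, for example -1.16 against -0.83 points in sp7- cells at 0 dpa. It also had the higher interior level in all 4 groups, in this example 78.5 against 77.8%. In whole fin the less deep replicate had the slightly larger difference at 0, 1 and 4 dpa, and the deeper one at 2 dpa. The part of depth or of level in this was not tested.

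Differences at single 500 bp tiles were tested with limma on 71272 tiles of the ends that had at least 10 calls in each sorted library, within a fit of 1870252 tiles of all 25 chromosomes. A tile was called at an adjusted p under 0.05 (Benjamini-Hochberg over all tiles) and a difference above 25 points. At 0 dpa 216 tiles of the ends were called between sp7+ and sp7- cells. This was 0.303% of the tiles tested in the ends, against 0.292% in the interior and 0.281% over all 25 chromosomes. Of them 200 were lower in sp7+ cells (0.281%, against 0.268% in the interior and 0.258% over all chromosomes) and 16 higher (0.0224%, against 0.0237% in the interior and 0.0234% over all chromosomes). At 4 dpa 151 tiles were called (0.212%, against 0.22% in the interior and 0.209% over all chromosomes), 140 lower (0.196%, against 0.176% and 0.167%) and 11 higher (0.0154%, against 0.044% and 0.0419%). The share of tiles called between the cell types in either direction was thus near that of the background. The tested tiles of the ends held means of 205.5 calls per library and 12.3 CpGs, those of the interior 150.9 and 10.2. The part of this in the shares was not tested. At 4 dpa the share of lower tiles was above the background and that of higher tiles, from 11 tiles, below it. These differences by direction were not tested.

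The calls were spread over the ends. They fell in 46 of 48 ends at 0 dpa and 40 at 4 dpa, with at most 11 and 10 in 1 end. The 216 tiles formed 201 separate stretches, so few neighboured each other. In the outer 100 kb, 25 of 7454 tiles (0.335%) were called at 0 dpa and 18 (0.241%) at 4 dpa, near the shares of the whole ends. Of the tiles with over 20 CpGs, 0.131% were called in the ends at 0 dpa (11 of 8377) and 0.0341% in the interior (35 of 102767), and at 4 dpa 0.107% and 0.0467%. The order was the other way in tiles with 3 or 4 CpGs, with 0.310% and 0.362% at 0 dpa and 0.186% and 0.207% at 4 dpa, and in tiles with 5 to 7 CpGs, with 0.370% and 0.383% and then 0.239% and 0.27%. In tiles with 8 to 12 CpGs the share was higher in the ends at 0 dpa (0.352% and 0.319%) and lower at 4 dpa (0.256% and 0.264%). In tiles with 13 to 20 CpGs it was higher in the ends at both times, with 0.267% and 0.169% and then 0.185% and 0.153%. So it was in tiles with 1 or 2 CpGs, with 0.311% and 0.286% and then 0.311% and 0.186%, from 3 called tiles of the ends each time. These differences between ends and interior were not tested. Without 1 of the 4 libraries compared the 0 dpa count was 41 without sp7- replicate 1, 69 without sp7- replicate 2, 42 without sp7+ replicate 1 and 85 without sp7+ replicate 2. The 4 dpa count was 0 without any 1 of the 4 libraries at 4 dpa and 96 without sp7- 0 dpa replicate 2.

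Both time points called 79 tiles, all of them lower in sp7+ cells. These are 36.6% of the calls at 0 dpa and 52.3% of those at 4 dpa, against 31.6% and 41.9% in the interior and 31.6% and 42.4% over all chromosomes, and the difference was not tested. The mean level of the 79 tiles was 25.6 and 26.6% in the uninjured sp7+ libraries, and 37.5 and 37.5% in those of day 4. In sp7- cells it was 67.4 and 67.0% before and 74.5 and 74.8% after amputation. The cell types did not overlap, which the choice of the tiles fixed. The whole fin libraries were not used in the choice. In them the mean level was 62.8 and 62.2% in uninjured fin, 67.3 and 67.7% on day 1, 69.5 and 69.2% on day 2 and 69.7 and 68.2% on day 4. All 6 libraries after amputation were above both at 0 dpa, by 6.13 points in the mean. The mean over all tiles of the ends differed by 0.62 points, but tiles of like level were not compared. Tiles called higher in sp7+ cells differed by 2.36 points (16 tiles, called at 0 dpa) and by -5.27 points (11 tiles, called at 4 dpa) in whole fin. In bulk fin a change in the share of a cell type and a change within its cells cannot be told apart.

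The 3 tiles with the largest mean difference at both time points were lower in each of the 4 sp7+ libraries than in each of the 4 sp7- libraries, with whole fin in the mean nearer to sp7- cells. They were chosen by this difference among tiles called in the same sorted libraries. The choice therefore fixed adjusted p-values under 0.05 and favoured the separation of the cell types. At chr7:966000-966499, 966 kb from the left end with 3 CpGs, sp7+ cells had 29.8 and 11.1% when uninjured and 40.5 and 35.5% on day 4. The sp7- cells had 94.8 and 93.1% and then 95.0 and 96.9% there, and whole fin 77.8 to 100%. The differences were -73.5 points at 0 dpa and -58.0 at 4 dpa (limma, adjusted p = 0.00109 and 0.00859). At chr2:59138000-59138499, 405 kb from the right end with 5 CpGs, sp7+ cells had 4.88 and 0% when uninjured and 4.26 and 10% on day 4. The sp7- cells had 44.2 and 64.3% and then 68.2 and 70%, and some libraries had as few as 7 calls in whole fin and 11 in sp7+ cells. The differences were -51.8 and -62.0 points (limma, adjusted p = 0.0117 and 0.00790). At chr8:53403500-53403999, 788 kb from the right end with 10 CpGs, sp7+ cells had 24.1 and 40.2% when uninjured and 29.9 and 45.3% on day 4. The sp7- cells had 89.0 and 93.5% and then 83.8 and 97.1%, and the differences were -59.1 and -52.9 points (limma, adjusted p = 0.00585 and 0.0165). Whole fin had 69.6 and 74.1% here when uninjured and between 78.2 and 96.7% after amputation, and no whole fin test called the tile.

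Over time 2 tiles of the ends were called in sp7- cells, both lower at 4 dpa. They were 0.00281% of the ends, against 0.00753% in the interior and 0.00695% over all chromosomes in either direction, and against 0.00725% and 0.00663% that were lower. None of the ends was higher, against 0.000276% in the interior and 0.000321% over all chromosomes. At chr3:61839000-61839499, 546 kb from the right end with 8 CpGs, sp7- cells had 87.4 and 79.3% when uninjured and 35.7 and 38.6% on day 4. The difference was -46.2 points (limma, adjusted p = 0.0411). At chr11:156000-156499, 156 kb from the left end with 8 CpGs, sp7- cells had 73.6 and 71.4% when uninjured and 27.2 and 13.1% on day 4, a difference of -52.4 points (limma, adjusted p = 0.0427). In sp7+ cells the first tile had 82.9 and 90.3% when uninjured and 74.1 and 73.2% on day 4, and the second 81.8 and 78.0% and then 56.8 and 53.4%. Whole fin had 77.9 and 56.0% when uninjured and 46.2 and 38.5% on day 4 at the first tile, and 71.4 and 60.7% and then 27.3 and 45.9% at the second. Both calls were lost without any 1 of the 8 sorted libraries and with a replicate block, where the count was 0.

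No tile of the ends was called over time in sp7+ cells or in the 4 comparisons of whole fin that were made. In sp7+ cells limma gave 0 calls in the ends and 0 over all chromosomes, with 6303 of 71272 tiles of the ends (8.84%) at an unadjusted p under 0.05, against 9.63% over all chromosomes. In whole fin 61496 tiles of the ends were tested, and limma gave 0 calls for 4 against 1, 4 against 0, 1 against 0 and 2 against 0 dpa. Unadjusted p-values under 0.05 were found in 5436, 3682, 3964 and 3543 tiles, which is 8.84, 5.99, 6.45 and 5.76%, against 10.1, 6.59, 7.45 and 6.46% over all chromosomes. Whole fin at 4 against 2 and at 2 against 1 dpa was not tested. Over all chromosomes the calls were 0, 1, 0 and 0, and the single one, which was higher at 4 than at 0 dpa, lay in the interior (8.33e-05% of it and 6.44e-05% of all tiles). A difference of the cell type effect between time points was called in 0 tiles of the ends and 0 of all, with 4.09% of the tiles of the ends at an unadjusted p under 0.05 and 4.87% in the interior. Beyond single tiles the median change of a tile of the ends over time was -1.67 points in sp7+ cells and -1.48 in sp7- cells, against -1.81 and -1.58 over all chromosomes.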

How the data were processed

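WGBS of 16 libraries was analysed. The deposited values were counts made by the authors, who gave for each CpG the reads that covered it and the methylated reads among them, with no normalization. Per the submitters' notes and the study's methods, reads were trimmed with Trim Galore 0.4.1, mapped with Bismark 0.16.1 and Bowtie2 to GRCz10 carrying the variants of the strain, and deduplicated, both strands were joined, and CpGs disrupted by a variant were left out. Reads in assembly repeats near the ends can be misplaced, and indels of the strain were not in the reference. Whether positions count from 0 or from 1 was not settled.

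Levels were methylated calls over all calls per library. Ends and interior were compared within libraries by exact sign permutation over 16 libraries, and cell types and times by exact permutation of libraries. Tiles of 500 bp, kept where each library of a set had 10 calls, were tested with limma 3.58.1 in R 4.3.3 on arcsine-transformed levels with weights for depth and 1 mean per group, after a test on simulated data. Other steps used Python 3.11.15 and numpy 2.4.6. Depth was 117991918 to 471925247 calls per library, without molecular identifiers, so depth limits counting error only. The study's methods imply that both cell types of a replicate were sorted from the same fish, which would pair sp7+ and sp7- libraries of 1 time point and number, and the labels do not say so. Their tile deviations correlated at 0.103 at 0 dpa and 0.0616 at 4 dpa, and those of sorted groups of different time points at 0.054 to 0.0736, so the 4 dpa value is no sign of pairing. Alternatives were other widths, weights, filters, tile sizes and left-out libraries.

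Named ends were the 3 lowest and 3 highest relative to their interior. Named tiles, with at least 3 CpGs, were the 3 of largest mean difference called at both time points in each direction (none was higher) and the called tiles of time comparisons with at most 4 calls. Runs, tips and the extreme tips were named after their values were seen. The ends and comparisons were chosen with earlier results of these data known. No sequence or gene name was used, since no genome of this build was used here.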

Additional observations from a re-analysis of the deposited data

Results flagged for a closer look

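In 30 sets of 4 or 6 libraries that the comparisons joined, 2 libraries lay far from the others of their set. The cutoff used would flag about 1 in 20 sets of like libraries by chance. The sets here overlapped and joined different groups, so this rate does not apply to them as it stands. The level of the ends was 74.94% in sp7- 4 dpa replicate 2, while the other 3 sp7- libraries had 76.99 to 77.33%. The ends minus the interior was -1.16 points in sp7- 0 dpa replicate 1, while the other 3 sorted libraries at 0 dpa had -0.83 to -0.76 points.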

How the results depend on the processing

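Over 443 alternatives to 23 results, 392 left the direction and the side of the threshold (for counts, the size within 1.5 times) as reported. Of the 443, 240 left out 1 library each, and 217 of these 240 stayed as reported. Over all 443, 19 reversed the direction and 25 moved a count beyond that size. Leaving out each library in turn moved the ends minus the interior between -0.90 and -0.86 points and the outer 100 kb minus 900 kb to 1 Mb between -6.34 and -6.30. With ends of 2 Mb the ends minus the interior was 0.63 points, the density-matched difference 0.027, right minus left -0.23 and the change of the gap to the interior with time in sorted cells -0.0079. Without the outer 300 kb the ends minus the interior was 0.31, right minus left -0.59 and the change of the gap -0.0079. High tiles differed by -0.49 points in ends of 500 kb, by -1.20 without deeply covered tiles, by -1.58 with matched CpGs per tile and by -3.67 against 1 to 5 Mb, and middle tiles by 0.38 and 1.62 in the last pair. Right minus left was 0.0599 with equal weights and -0.20 without the left end of chromosome 14. Sorted cells at 4 minus 0 dpa passed p under 0.05 with ends of 2 Mb (-1.89), a mean over CpGs (-1.63), equal weights (-1.85), a mean over tiles (-1.80) and without the left end of chromosome 3 (-1.84), each at p = 0.0286 by exact permutation, and ran from -2.22 to -1.43 without single libraries. With a replicate block the change of sorted cells with time, -1.85 points, gave p = 0.125 by exact permutation. Without single libraries the sp7+ minus sp7- level ran from -0.11 to 0.98 points and the change of the gap with time from -0.061 to 0.12. The mean over tiles, the ends and the 300 kb left out, the thinning, the matching and the zone from 1 to 5 Mb were chosen after seeing the data.

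Called tiles of the ends between cell types were 53 at 0 dpa and 0 at 4 dpa without weights, and 95 and 50 with tiles of 1000 bp. Without single libraries they ran from 41 to 219 and from 0 to 109. The sp7- time count of 2 was 8 with at least 20 calls, and 0 without weights, with tiles of 1000 bp and without any single library. With the replicate block it was 0, and the cell type counts were 222 and 117. The block changed no other call. The causes of these changes were not tested, except that fewer libraries were compared where 1 was left out. Depth limits tiles of the ends most in whole fin, where 61496 could be tested against 71272 in sorted cells.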
